A study of Mus musculus with 4 samples.

Results

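The genes described here are 10 cytokine and chemokine ligands, *Ifng*, *Ifnb1*, *Tnf*, *Ltb*, *Il10*, *Ccl3*, *Ccl4*, *Ccl5*, *Cxcl10* and *Ccl22*, out of 55359 genes in the count table. They were selected by name with values of this same comparison known, so their levels and folds are given as a description without a test. T8 is a cell line grown from a single primary preB cell leukemia (pB-ALL) of an *Irf4*-/- mouse, established on irradiated ST2 stromal cells. It was transduced with a retrovirus (RV) coding for GFP alone (EV-RV) or for IRF4 together with GFP (IRF4-RV), and bulk RNA was sequenced from viable cells 24 h later in 2 libraries per group, so all 4 libraries carry the *Irf4*-/- genotype and a GFP virus. The titles and tissue label name T8, whereas the culture protocol in the labels names T11, and the libraries were used as T8. The design text calls the replicates biological, but no source used here says that they came from separate transductions, so the spread between them may be technical.

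Cytokines and chemokines are secreted or membrane-bound proteins through which cells of the immune system signal to each other. Interferons (*Ifng*, *Ifnb1*) and interleukin 10 (*Il10*) signal through receptors coupled to JAK kinases and STAT factors, whereas the TNF family ligands (*Tnf*, *Ltb*) signal mainly towards NF-kappaB, and chemokines (*Ccl3*, *Ccl4*, *Ccl5*, *Cxcl10*, *Ccl22*) act on G protein-coupled receptors that guide cell migration. In the B lineage, lymphotoxins and the chemokines CCL3 and CCL4 are known products of activated cells, while IFN-gamma is best known from T and NK cells. IRF4 is a transcription factor that binds interferon-stimulated response elements (ISRE) and, together with ETS partners, ETS-IRF composite elements.

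RefSeq promoter sequence (GRCm38.p6, 250 bases before to 50 bases after the start, 300 bases in all) was given for 7 of the 10 genes, *Ifng*, *Ifnb1*, *Tnf*, *Ltb*, *Ccl3*, *Cxcl10* and *Ccl22*. The bases before the start are printed below for the 3 genes with the clearest rise in counts among these 7 (*Ifng*, *Cxcl10*, *Ccl3*), for the 1 that was lower (*Ltb*) and for *Ifnb1*, which had at most 3 counts in every library, so that the letters can be read beside the counts. Each runs 5′ to 3′ on the strand of the gene, with matches to any of the 5 motifs searched in capitals.
Ifng, chr10:118440796-118441045, plus strand: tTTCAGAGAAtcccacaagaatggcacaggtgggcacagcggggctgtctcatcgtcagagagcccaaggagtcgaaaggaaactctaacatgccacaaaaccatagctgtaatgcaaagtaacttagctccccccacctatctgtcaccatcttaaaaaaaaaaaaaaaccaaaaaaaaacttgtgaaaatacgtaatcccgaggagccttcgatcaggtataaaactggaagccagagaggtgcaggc
Cxcl10, chr5:92348890-92349139, minus strand: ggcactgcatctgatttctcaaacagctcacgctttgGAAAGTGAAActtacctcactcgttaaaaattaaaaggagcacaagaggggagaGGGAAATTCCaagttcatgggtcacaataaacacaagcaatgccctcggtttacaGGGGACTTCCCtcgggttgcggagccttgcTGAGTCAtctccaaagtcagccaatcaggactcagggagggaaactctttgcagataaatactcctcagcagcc
Ccl3, chr11:83649379-83649628, minus strand: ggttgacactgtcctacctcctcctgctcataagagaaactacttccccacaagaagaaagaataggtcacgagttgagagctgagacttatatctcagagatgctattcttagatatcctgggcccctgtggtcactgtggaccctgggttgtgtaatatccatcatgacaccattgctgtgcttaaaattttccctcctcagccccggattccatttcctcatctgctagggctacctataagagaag
Ltb, chr17:35194257-35194438, plus strand, the 182 bases before the earlier of the RefSeq and GENCODE M21 starts: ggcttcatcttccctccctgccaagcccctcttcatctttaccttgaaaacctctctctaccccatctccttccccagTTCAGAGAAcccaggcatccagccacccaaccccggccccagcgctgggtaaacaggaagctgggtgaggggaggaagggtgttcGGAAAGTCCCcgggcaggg
Ifnb1, chr4:88522795-88523044, minus strand: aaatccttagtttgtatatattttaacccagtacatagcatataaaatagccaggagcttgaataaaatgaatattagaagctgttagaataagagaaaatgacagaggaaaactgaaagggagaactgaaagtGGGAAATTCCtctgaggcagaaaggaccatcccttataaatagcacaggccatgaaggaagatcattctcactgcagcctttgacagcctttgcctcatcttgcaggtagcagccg

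The motifs were searched on both strands over the whole 300 bases, and overlapping matches were all kept. The ISRE (GAAANNGAAA) was found in 1 of the 7 promoters, *Cxcl10*, at -213 to -204 from the RefSeq start, and in 3.44% of all 32851 promoters. The ETS-IRF composite (GGAANNGAAA) was in none of the 7 promoters and in 2.72% of all. The GAS element bound by STAT factors (TTCNNNGAA) was in *Ifng* at -249 to -241 and in *Ltb* at -172 to -164, and in 8.30% of all. The AP-1 motif (TGANTCA) was in *Cxcl10* at -74 to -68 and in 7.81% of all. The NF-kappaB consensus was in *Cxcl10* (-159 to -150, and overlapping matches from -104 to -94), *Ltb* (-87 to -78) and *Ifnb1* (-116 to -107), and in 8.46% of all. The *Ccl3*, *Tnf* and *Ccl22* windows held none of the 5. A match describes letters and not binding. The patterns fix letters and spacing, so a window without a match, such as *Ifnb1* for the ISRE, can hold variant sites. Nor does it say anything of sites elsewhere.

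The libraries held between 31230223 and 37817752 counts, so that 3 counts equalled between 0.0823 and 0.0951 CPM (counts scaled to the library size after TMM factors). *Irf4* (ENSMUSG00000021356) had 8070 and 7600 counts in EV-RV and 95578 and 90693 in IRF4-RV, a log2 fold change of 3.46 (SE 0.0907) with an edgeR adjusted p of 1.14e-06. Counts on *Irf4* in the EV-RV libraries of an *Irf4*-/- line cannot be assigned to a part of the gene from these files, and in IRF4-RV they include the virus. B lineage markers were abundant (*Cd79a* between 29068 and 33036 counts), with *Vpreb1* and *Igll1* lower in IRF4-RV. The exception was *Rag1*, with 1 and 0 counts in EV-RV, and 1 and 1 in IRF4-RV.

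IRF4-RV replicate 2 stood apart in stromal cell genes. Summed over 8 stromal markers, CPM was 42 and 78.4 in EV-RV, and 42.4 and 189 in IRF4-RV, and 0 of the 6 markers tested were called (edgeR, 0 at an unadjusted p under 0.05, and 0 by DESeq2). *Col1a2*, a collagen chain, was 4.97-fold and *Pdgfrb*, a receptor of mesenchymal cells, 6.2-fold higher in IRF4-RV replicate 2 than in replicate 1. Of the 10 ligands, the 6 with more than 3 counts in both IRF4-RV libraries had ratios between 0.558 (*Tnf*) and 1.59 (*Cxcl10*), while the central 95% of 14365 genes ran from 0.62 to 2.67. Other ligand genes were also higher in IRF4-RV replicate 2 than in replicate 1, namely *Ccl2* (10.5-fold), *Il1rn* (8.07-fold), *Kitl* (6.51-fold), *Cxcl12* (6.39-fold), *Cxcl5* (6.36-fold), *Ccl7* (3.19-fold) and *Ccl9* (2.92-fold). Between the EV-RV replicates the 6 stromal markers tested had ratios of 1.79 to 2.71 (replicate 2 over 1). The other stromal markers were too sparse for a ratio. *Lepr* had 0 and 14 counts in EV-RV, and 1 and 0 in IRF4-RV, and *Lum* had at most 1 count in every library. Of the ligand genes just named, *Cxcl5* (5.29), *Kitl* (2.72), *Il1rn* (2.38), *Cxcl12* (2.06) and *Ccl9* (1.2) were likewise higher in EV-RV replicate 2. *Ccl2* (0.318) and *Ccl7* (0.353) went the other way. These ligand genes were named after their values were seen, and the part of stromal RNA in them was not tested.

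**Figure D1:**
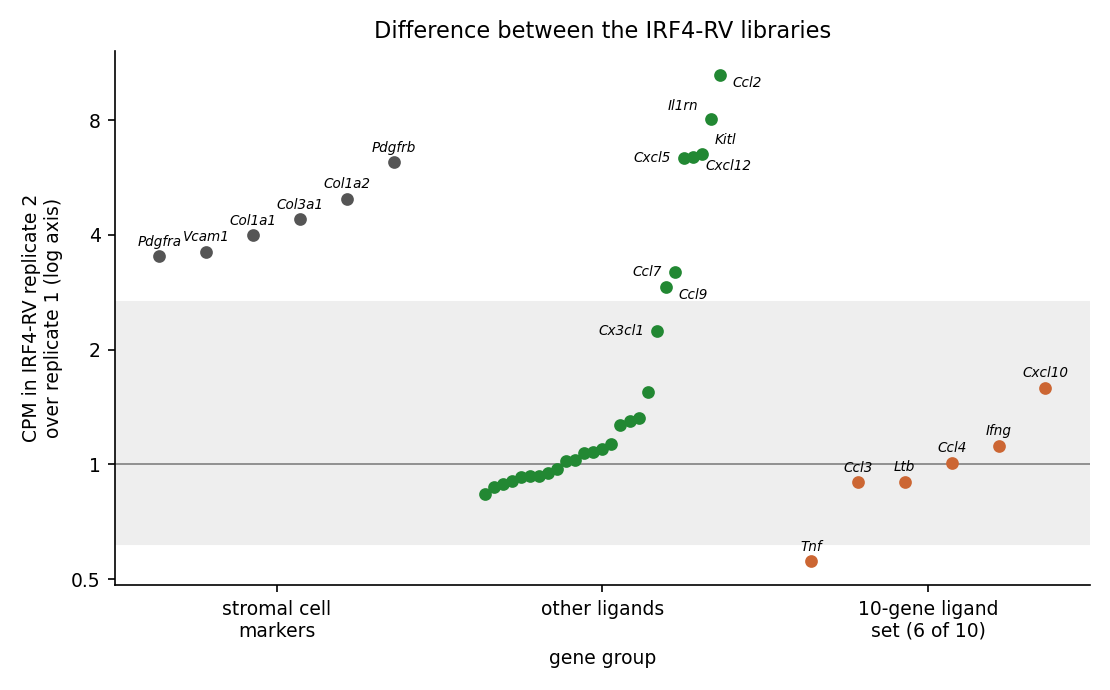
CPM in IRF4-RV replicate 2 divided by replicate 1 (log axis) for stromal markers (grey), other ligand genes (green, named above 2) and the 6 genes of the 10-gene ligand set with more than 3 counts in both libraries (orange). The band holds the central 95% of 14365 genes, 0.62 to 2.67. The 6 stromal markers shown lie between 3.52 and 6.2, and the ligand set between 0.558 and 1.59. *Lepr* and *Lum* were too sparse to be drawn.

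Markers of T, NK and myeloid cells were also read, because such cells are common sources of these ligands. *Cd8a*, *Cd8b1*, *Trbc1* and *Trbc2* were at 0 in every library and *Cd3e* had at most 2 counts, although *Trac* and *Zap70* had between 391 and 950 counts (summed CPM of the 11 T cell markers 48.5 and 47.8 in EV-RV, 32.8 and 31.9 in IRF4-RV). *Ncr1*, *Klrk1* and *Gzmb*, which mark NK cells, were at 0 throughout, and the 9 NK markers summed to between 1.89 and 2.42 CPM. Others of the 9 were present, *Klrb1c* with 42 and 33 counts in EV-RV, and 35 and 54 in IRF4-RV, and *Prf1* with 26 and 24 against 24 and 25. *Gzma* had 0 and 1 count in EV-RV, and 5 and 7 in IRF4-RV. The 11 macrophage markers summed to 1.53 and 1.49 CPM in EV-RV and to 8.59 and 7.55 CPM in IRF4-RV, which followed *Mrc1* (24 and 23 counts against 260 and 230), while *Adgre1* was at 0 and *Lyz2* and *Csf1r* had at most 3 counts. Of the other macrophage markers, *Cd68* had 21 and 15 counts against 25 and 29, and *Cd14* had 0 and 5 against 4 and 9. The 8 dendritic cell markers summed to 1.59 and 1.33 CPM against 4.22 and 4.53 CPM. Most of that rise was in *Flt3* (23 and 14 counts against 101 and 112). *Xcr1* had 1 and 2 counts against 8 and 15, *Zbtb46* had 27 and 24 against 30 and 37, and *Itgax* and *Siglech* were at 0. The 8 granulocyte markers summed to at most 6 counts per library. The part of any other cell type in the ligand counts was not tested. Fewer cells of a type and less RNA per cell cannot be told apart in bulk RNA.

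Among the 10 ligands, *Ifng*, *Cxcl10*, *Ccl3*, *Ccl4* and *Tnf* had more counts in both IRF4-RV libraries than in either EV-RV library, and *Ltb* had fewer. The same order held in CPM. Raw counts also separate in genes without a change, such as *Cd79a* (log2 fold change -0.01), since the IRF4-RV libraries were larger. The share of all genes separated in this way was not counted, so the separation alone is not read as a result. *Tnf* rested on at most 10 counts per library, and *Ifnb1*, *Il10*, *Ccl5* and *Ccl22* had at most 3 counts in every library. Summed over the 10 genes, the libraries held 560 and 537 counts in EV-RV, and 1125 and 1093 in IRF4-RV. *Ccl3* made up 45% and 43.6% of these counts in EV-RV and 74.3% and 73.9% in IRF4-RV, while *Ltb* went from 54.1% and 54.4% to 20% and 19.9%. The filter on low counts kept 4 of the 10 (*Ifng*, *Ltb*, *Ccl3*, *Ccl4*), 2 of them (*Ifng*, *Ccl4*) through their IRF4-RV counts alone. Past an FDR of 0.1 in the fit of all genes there were 3 higher and 1 lower, where the fit called 29.7% of 14637 genes in either direction, 16.0% higher and 13.7% lower. Nothing is read from this count, since the genes were selected on the same contrast.

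**Figure D2:**
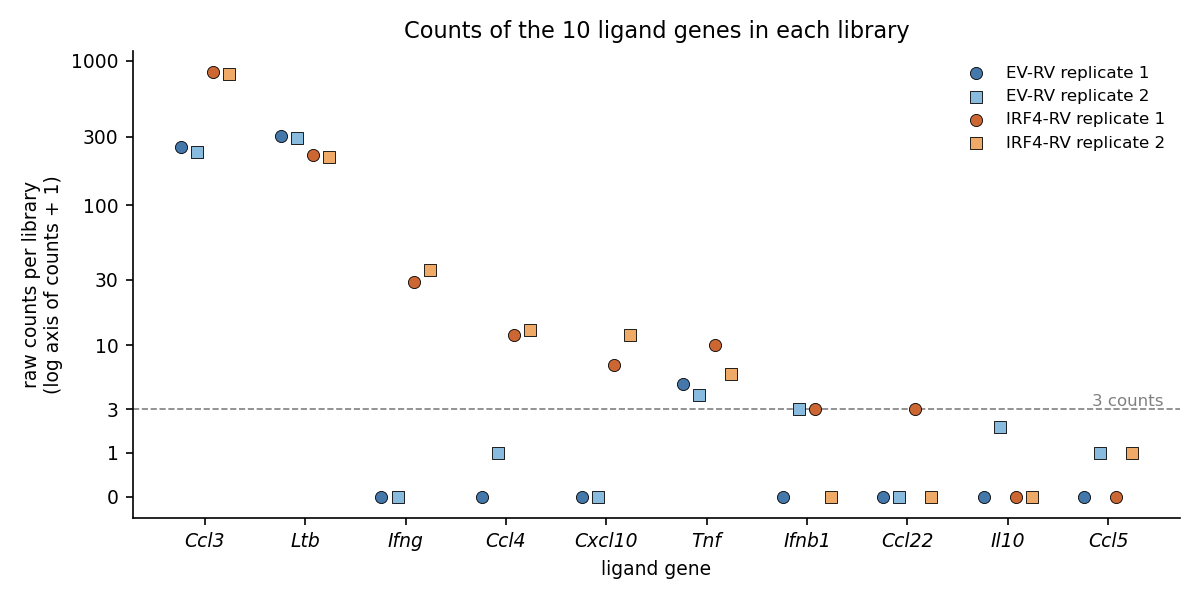
Raw counts of the 10 ligand genes in each of the 4 libraries, on a log axis of counts + 1 (blue, EV-RV; orange, IRF4-RV; circles, replicate 1; squares, replicate 2). The dashed line is at 3 counts. *Ccl3* rises from 252 and 234 to 836 and 808 counts and *Ifng* from 0 and 0 to 29 and 35, while the 4 genes on the right stay at or below 3 counts.

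*Ifng* codes for IFN-gamma, the type II interferon, and lies at chr10:118441046-118445892 on the plus strand (GRCm38, GENCODE M21, ENSMUSG00000055170). It had 0 and 0 counts in EV-RV, and 29 and 35 in IRF4-RV, or 0.856 and 0.961 CPM (0.908 ± 0.0742, SD, n = 2). The groups did not overlap, and the level in IRF4-RV was at least 9.82-fold higher than 3 counts in each EV-RV library. At 0.701 ± 0.0573 CPM per kb of exon in IRF4-RV it was a rare transcript. *Gm49751* overlaps *Ifng* on the same strand, so reads of the overlap cannot be assigned between them here.

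*Ifnb1* codes for IFN-beta, a type I interferon (chr4:88522025-88522774, minus strand, ENSMUSG00000048806). It had 0 and 3 counts in EV-RV, and 3 and 0 in IRF4-RV, and the groups overlapped. At this depth a change below about 3 counts per library was not detectable, and no fold is given. The other type I and III interferon genes were as sparse, 17 of 19 being at 0 in every library, 18 of 19 at no more than 3 counts, and 0 passing the filter, with the near-identical *Ifna* genes uncertain because reads can align to several of them. *Ifnz* was the exception with 2 and 11 counts in EV-RV, and 5 and 3 in IRF4-RV, which overlap.

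*Tnf* (chr17:35199381-35202007, minus strand, ENSMUSG00000024401) codes for TNF, a main inflammatory cytokine. Its counts were 5 and 4 in EV-RV, and 10 and 6 in IRF4-RV. The groups did not overlap, but the pooled ratio of 1.64 had a 95% interval of 0.683 to 4.22 (exact, counting error only), which includes no change.

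*Ltb* (chr17:35194439-35196320, plus strand, ENSMUSG00000024399) codes for lymphotoxin beta, the membrane anchor of the lymphotoxin heterotrimer that signals to lymphoid stroma. It had 303 and 292 counts in EV-RV, and 225 and 218 in IRF4-RV. Both IRF4-RV libraries were below both EV-RV libraries. The level went from 9.16 ± 0.128 to 6.31 ± 0.464 CPM (SD, n = 2), a log2 fold change of -0.54 (SE 0.131), or 1.45-fold lower. The annotated microRNA gene *Mir6973a* lies within it.

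*Il10* (chr1:131019845-131024974, plus strand, ENSMUSG00000016529), an anti-inflammatory cytokine of activated B and T cells, had 0 and 2 counts in EV-RV, and 0 in both IRF4-RV libraries. A count of 0 allows up to 3 counts, so no difference was detectable.

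*Ccl3* (chr11:83647844-83649355, minus strand, ENSMUSG00000000982) codes for MIP-1alpha, an inflammatory chemokine, and was the ligand of the 10 with the most counts in IRF4-RV. It had 252 and 234 counts in EV-RV, and 836 and 808 in IRF4-RV. The groups lay far apart relative to their spread, at 7.48 ± 0.0919 and 23.4 ± 1.76 CPM (SD, n = 2). The log2 fold change was 1.65 (SE 0.111), or 3.13-fold, and 346 of the 14637 genes had a larger one. Per kb of exon it went from 9.77 ± 0.12 to 30.6 ± 2.3 CPM.

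*Ccl4* (chr11:83662584-83664683, plus strand, ENSMUSG00000018930) codes for MIP-1beta, a related inflammatory chemokine, and lies 13.2 kb from *Ccl3*. It had 0 and 1 count in EV-RV, and 12 and 13 in IRF4-RV. The groups did not overlap, and the pooled ratio was 23.1 with a 95% interval of 3.78 to 948 (exact, counting error only). In IRF4-RV its level per kb (0.539 CPM) was far below that of *Ccl3* (30.6 CPM). *Ccl5* (RANTES; chr11:83525778-83530518, minus strand, ENSMUSG00000035042), a further inflammatory chemokine at 117 kb from *Ccl3*, had 0 and 1 count in EV-RV, and likewise 0 and 1 in IRF4-RV.

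*Cxcl10* (chr5:92346638-92348889, minus strand, ENSMUSG00000034855) codes for IP-10, an interferon-induced ligand of CXCR3. It had 0 counts in both EV-RV libraries, and 7 and 12 in IRF4-RV. The groups did not overlap, and the IRF4-RV level was at least 2.9-fold higher than 3 counts in each EV-RV library. It did not pass the filter on low counts. *Art3* overlaps it on the opposite strand. *Ccl22* (MDC; chr8:94745590-94751699, plus strand, ENSMUSG00000031779), a ligand of CCR4, had 0 counts in EV-RV, and 3 and 0 in IRF4-RV.

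Leaving out IRF4-RV replicate 2 changed the log2 fold change of *Ccl3* to 1.73 and of *Ltb* to -0.46. Over the 11 alternatives run these stayed between 1.55 and 1.73 and between -0.63 and -0.46. DESeq2 called 3 of the 10 ligands, *Ifng*, *Ltb* and *Ccl3*, and did not call *Ccl4*. *Ccl4*, with few counts, was not called without EV-RV replicate 1 and was not fitted without either IRF4-RV library.

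The 10 genes were then placed among all ligands. Together with 118 other ligand genes in 5 lists, 128 were counted, 47 of them at 0 in every library and 80 with at most 3 counts. The ligands summed to 37086 and 37100 counts in EV-RV, and 36295 and 40706 in IRF4-RV. The 10 genes held 1.51% and 1.45% of these in EV-RV, and 3.1% and 2.69% in IRF4-RV. *Mif* (696 CPM per kb in EV-RV, 613 in IRF4-RV), a broadly expressed cytokine, and *Tgfb1* (87.6 and 82.3) led the order per kb in both groups. *Ccl3* came next in IRF4-RV at 30.6, above *Tgfb3* (13.1 ± 0.474) and *Lta* (10.4 ± 0.675), while in EV-RV *Lta* (36 ± 2.36) was above *Ccl3* (9.77 ± 0.12). *Ltb* (4.16 ± 0.306 in IRF4-RV) did not differ beyond the spread from *Osm* (4.5 ± 0.425) or *Csf1* (4.11 ± 0.199).

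Of these 118 ligand genes, 27 passed the filter, and 10 rose and 3 fell (edgeR quasi-likelihood test with Benjamini-Hochberg adjustment, FDR 0.1). The fit called 16.0% of all genes tested higher and 13.7% lower. *Il18*, *Cxcl5*, *Ccl2* and *Ccl7*, among those that rose, had too few EV-RV counts to pass the filter without the IRF4-RV libraries. The balance of rises and falls is therefore given as a description. Among the TNF family ligands, 1 of 5 tested rose and 2 fell. *Lta*, which codes for lymphotoxin alpha, the partner of *Ltb* in the heterotrimer, had 1587 and 1645 counts in EV-RV, and 464 and 547 in IRF4-RV (log2 fold change -1.79, SE 0.102, edgeR adjusted p = 2.47e-05). The lymphotoxin genes thus were both lower, *Lta* by more than *Ltb* (-1.79 against -0.54, a difference that was not tested). *Tnfsf4*, which codes for OX40L, a costimulatory ligand, had 162 and 147 counts against 19 and 27 (-2.86, SE 0.251, edgeR adjusted p = 0.000205). *Tnfsf10*, coding for the death ligand TRAIL, had 151 and 142 counts against 354 and 354 (1.16, SE 0.133, edgeR adjusted p = 0.000776). The median of the 5 was -0.16, against 0.01 over all genes tested.

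Among interleukins and growth factors, 5 of 14 tested rose and 1 fell, with a median of 0.54. *Lif*, a cytokine of the IL-6 family, went from 81 and 107 counts to 335 and 301 (1.64, SE 0.199, edgeR adjusted p = 0.00101). *Tgfb3* (0.89, SE 0.0943, edgeR adjusted p = 0.000514) and *Il16*, a CD4 ligand (0.89, SE 0.112, edgeR adjusted p = 0.00118), rose alike. *Il18*, an inducer of IFN-gamma in T and NK cells, was named after its values were seen and went from 4 and 3 counts to 48 and 55 (3.72, SE 0.463, edgeR adjusted p = 0.00115). *Il12a*, the p35 subunit of IL-12, went from 127 and 87 to 164 and 199 counts (0.65, edgeR adjusted p = 0.06), and was not called without EV-RV replicate 2 (0.217) or IRF4-RV replicate 2 (0.117), with DESeq2 (0.135) or with library size only (0.12). *Csf1* went from 935 and 794 to 761 and 764 counts (-0.29, edgeR adjusted p = 0.0776), and was not called without EV-RV replicate 1 (0.293) or IRF4-RV replicate 2 (0.32), or with DESeq2 (0.153). *Tgfb1*, with between 14124 and 14599 counts, did not pass the test (-0.09, edgeR adjusted p = 0.439).

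Among the CC chemokines other than *Ccl3*, *Ccl4*, *Ccl5* and *Ccl22*, 3 of 5 tested rose and 0 fell (edgeR, also 0 lower at an unadjusted p under 0.05 and by DESeq2), with a median of 0.75. *Ccl25* went from 77 and 58 counts to 117 and 129 (0.75, SE 0.22, edgeR adjusted p = 0.0447), and was not called without EV-RV replicate 2 (0.17) or with DESeq2 (0.143). *Ccl2* (10 and 3 counts against 12 and 136, edgeR adjusted p = 0.0582) and *Ccl7* (6 and 2 against 14 and 48, edgeR adjusted p = 0.0351), both named after their values were seen, moved with the stromal markers between the IRF4-RV libraries but against them between the EV-RV libraries. Without IRF4-RV replicate 2 neither was called (0.82 with an edgeR adjusted p of 0.657 for *Ccl2*, 1.73 with 0.293 for *Ccl7*), nor without EV-RV replicate 2 (0.195 and 0.169). Of 3 CXC, XC and CX3C chemokines tested, *Cxcl5* rose from 2 and 10 counts to 37 and 253 (4.41, SE 0.99, edgeR adjusted p = 0.016). Without IRF4-RV replicate 2, which leaves 1 library in that group, the value was 2.53. In both groups *Cxcl5* was higher in replicate 2, where the stromal markers were higher. *Cxcl9* and *Cxcl11*, the other ligands of CXCR3, had at most 1 count in every library. *Cxcl11* is annotated as a polymorphic pseudogene, so nothing is read from its counts.

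**Figure D3:**
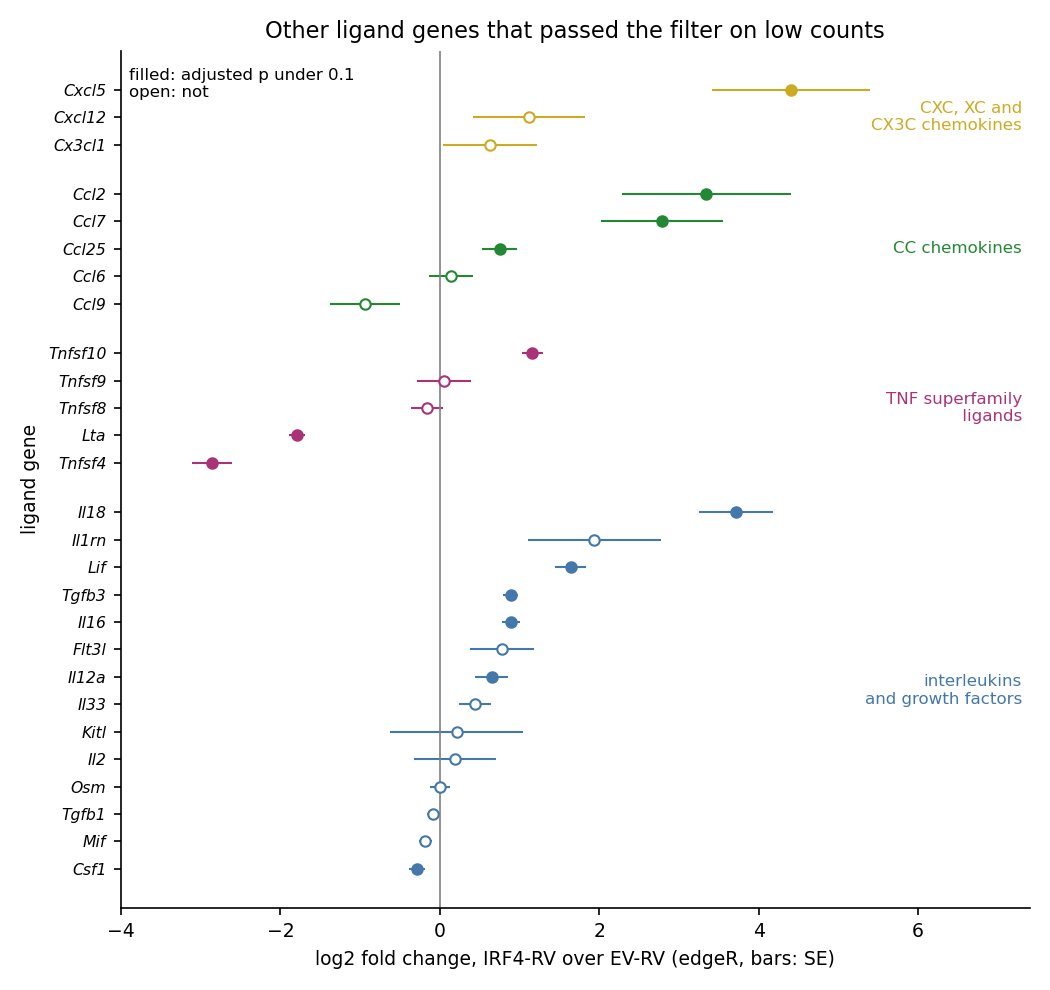
Log2 fold changes (IRF4-RV over EV-RV, edgeR; bars, SE) of the 27 other ligand genes that passed the filter on low counts, by family. Filled points passed an adjusted p of 0.1 and open points did not. *Lta* (-1.79) and *Tnfsf4* (-2.86) lie left of 0, and *Cxcl5*, *Ccl2* and *Ccl7*, which differed between the IRF4-RV libraries, have wide bars on the right.

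Receptors of the 10 ligands were read next. Of 13 receptor genes, 8 passed the filter, 6 rose and 0 fell (edgeR, likewise 0 lower at an unadjusted p under 0.05 and by DESeq2), with a median log2 fold change of 0.77 against 0.01 over all genes tested. Over all genes tested, 16.0% were called higher and 13.7% lower. Both chains of the type I interferon receptor rose, *Ifnar1* from 1088 and 868 counts to 2213 and 2076 (1.02, SE 0.115, edgeR adjusted p = 0.000675) and *Ifnar2* from 897 and 862 to 1514 and 1563 (0.69, SE 0.0863, edgeR adjusted p = 0.00116). For the IFN-gamma receptor, *Ifngr1*, the ligand-binding chain, had 1768 and 1751 counts against 2014 and 1987 (0.07, SE 0.0861, edgeR adjusted p = 0.609), and its sign turned with the scaling. *Ifngr2*, the signaling chain, rose by 0.41 (SE 0.0922, edgeR adjusted p = 0.0164), but was not called without IRF4-RV replicate 1 (0.121). Both chains of the IL-10 receptor rose, *Il10ra* from 36 and 27 to 116 and 77 counts (1.51, SE 0.332, edgeR adjusted p = 0.0148) and *Il10rb* from 310 and 277 to 559 and 583 (0.85, SE 0.109, edgeR adjusted p = 0.00133).

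Of the TNF receptors, *Tnfrsf1b* rose from 1144 and 1091 counts to 2013 and 2130 (0.78, SE 0.0817, edgeR adjusted p = 0.000491). *Tnfrsf1a* had 13 and 44 counts in EV-RV, and 18 and 90 in IRF4-RV (0.76, SE 0.756, edgeR adjusted p = 0.525). Its groups overlapped, it was higher in both replicates 2, where the stromal markers were higher, and the value turned to -0.73 without IRF4-RV replicate 2. *Ltbr*, the receptor of the lymphotoxin heterotrimer, had 5 and 9 counts against 5 and 33 and was not tested. Among the chemokine receptors, *Ccr1*, *Ccr3*, *Ccr4* and *Cxcr3* had at most 4 counts in every library.

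**Figure D4:**
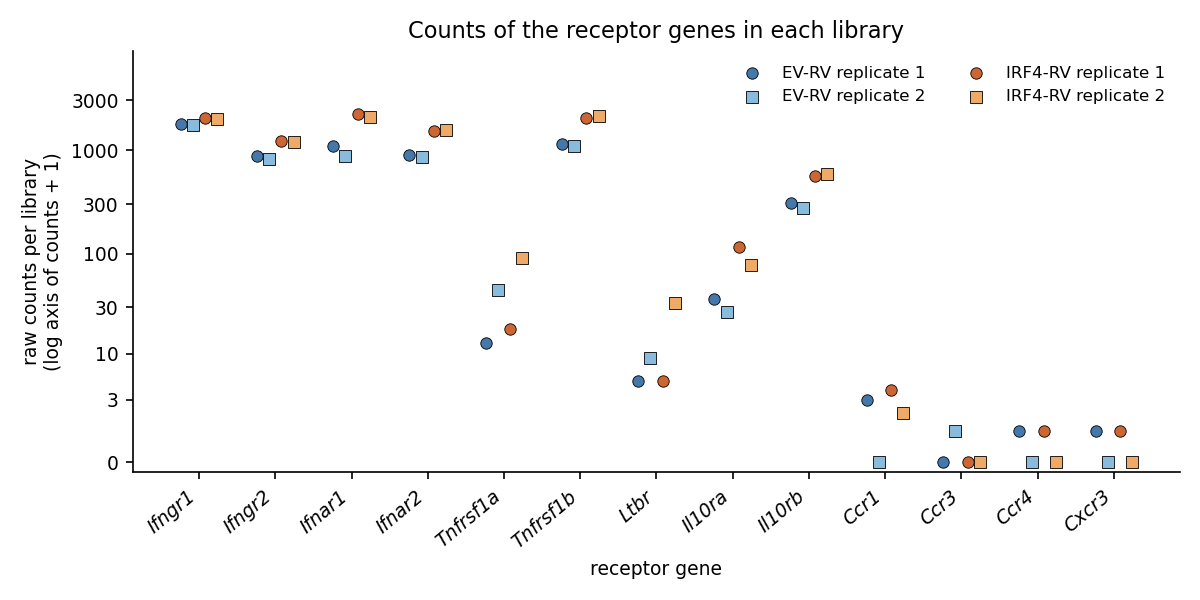
Raw counts of the 13 receptor genes in each library, on a log axis of counts + 1 (blue, EV-RV; orange, IRF4-RV; circles, replicate 1; squares, replicate 2). *Ifngr1*, *Ifngr2*, *Ifnar1*, *Ifnar2*, *Tnfrsf1b*, *Il10ra* and *Il10rb* have both IRF4-RV libraries above both EV-RV libraries in raw counts, which for *Ifngr1* overlap once scaled to CPM (52.9 and 55.5 in EV-RV, 59.4 and 54.5 in IRF4-RV), while *Tnfrsf1a* and *Ltbr* follow the replicate number.

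Genes that cytokine receptors commonly induce were read as well. Whether the ligands and receptors above act on them in these cells was not tested. Of 13 tested, 7 rose and 0 fell (edgeR, again 0 lower at an unadjusted p under 0.05 and by DESeq2), with a median of 0.78. Over all genes tested, 16.0% were called higher and 13.7% lower. *Traf1*, among those that rose and named after its values were seen, passed the filter through its IRF4-RV counts. *Stat2* went from 354 and 294 counts to 1317 and 1263 (1.88, SE 0.114, edgeR adjusted p = 3.2e-05) and *Irf9* from 656 and 670 to 2374 and 2352 (1.72, SE 0.0948, edgeR adjusted p = 2.27e-05), both parts of the complex that type I interferon activates. The NF-kappaB inhibitors *Nfkbie* (1.71, SE 0.101, edgeR adjusted p = 2.93e-05) and *Tnfaip3* (1.14, SE 0.198, edgeR adjusted p = 0.00528) rose. Other induced genes did not pass the test, with values of -0.05 for *Socs1*, 0.08 for *Socs3*, -0.05 for *Cish*, 0.10 for *Ciita*, -0.23 for *Cd274* and 1.33 for *Bcl3*.

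Of 15 transcription factors known to act at cytokine genes, 13 were tested, 7 rose and 2 fell, with a median of 0.27. Over all genes tested, 16.0% were called higher and 13.7% lower. *Prdm1*, among those that rose and named after its values were seen, passed the filter through its IRF4-RV counts. The interferon regulatory factors *Irf7* (273 and 230 counts against 915 and 1168; 1.93, SE 0.127, edgeR adjusted p = 4.53e-05) and *Irf1* (690 and 628 against 1885 and 1829; 1.38, SE 0.0955, edgeR adjusted p = 5.51e-05) rose, as did the NF-kappaB subunits *Nfkb2* (1.11, SE 0.0898, edgeR adjusted p = 0.000138) and *Relb* (0.86, SE 0.108, edgeR adjusted p = 0.00121). *Batf*, an AP-1 factor and partner of IRF4, fell by 0.51 (SE 0.0802, edgeR adjusted p = 0.0035). *Irf8* was lower by a smaller amount (-0.32, SE 0.0702, edgeR adjusted p = 0.0152), and was not called without IRF4-RV replicate 2 (0.134). *Tbx21* and *Eomes*, which drive *Ifng* in T and NK cells, had at most 3 counts in every library.

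The last comparison asked whether genes beside the 10 loci moved as well. Within 100 kb of their bodies lay 84 other genes, of which 32 were tested, 3 rose and 4 fell. These 7 of 32 were not above the 29.7% called over all genes tested, so nothing is read from their number. *Gm17705*, among those that rose, passed the filter through its IRF4-RV counts. In the gene-dense region of *Ltb* and *Tnf*, which lie 3.06 kb apart, 13 neighbours were tested. *Lta*, 1.16 kb from *Tnf* and 6.84 kb from *Ltb*, was the 1 that fell there, while *H2-D1*, a class I MHC gene 60.7 kb from *Tnf*, rose by 0.40 (SE 0.0738, edgeR adjusted p = 0.00674). *Gm17705*, singled out after seeing the values, had 5 and 8 counts against 25 and 21 (edgeR adjusted p = 0.0526), a call lost without any 1 of the 4 libraries. Near *Cxcl10*, *Nup54* (-0.39, edgeR adjusted p = 0.0131) and *Sdad1* (-0.37, edgeR adjusted p = 0.0247) fell and *Scarb2* rose (0.63, edgeR adjusted p = 0.00132), and *Sdad1* was not called without IRF4-RV replicate 2 (0.157). *Ciapin1*, 68.1 kb from *Ccl22* and also named after its values were seen, fell (-0.32, edgeR adjusted p = 0.0596), but not past the cutoff without EV-RV replicate 2 (0.247) or IRF4-RV replicate 2 (0.23).

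Around *Ccl3* and *Ccl4*, the neighbours tested did not pass. *Ccl9* had 95 and 108 counts against 28 and 88 (-0.94, edgeR adjusted p = 0.17) and *Ccl6* had 53 and 61 against 58 and 79 (0.14, edgeR adjusted p = 0.765). *Ccl9* moved with the stromal markers in IRF4-RV. It was -1.91 without IRF4-RV replicate 2, a fit that leaves 1 library in that group. Neither of the 2 neighbours tested near *Ifng*, nor the 1 each near *Ifnb1* and *Il10*, passed.

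**Figure D5:**
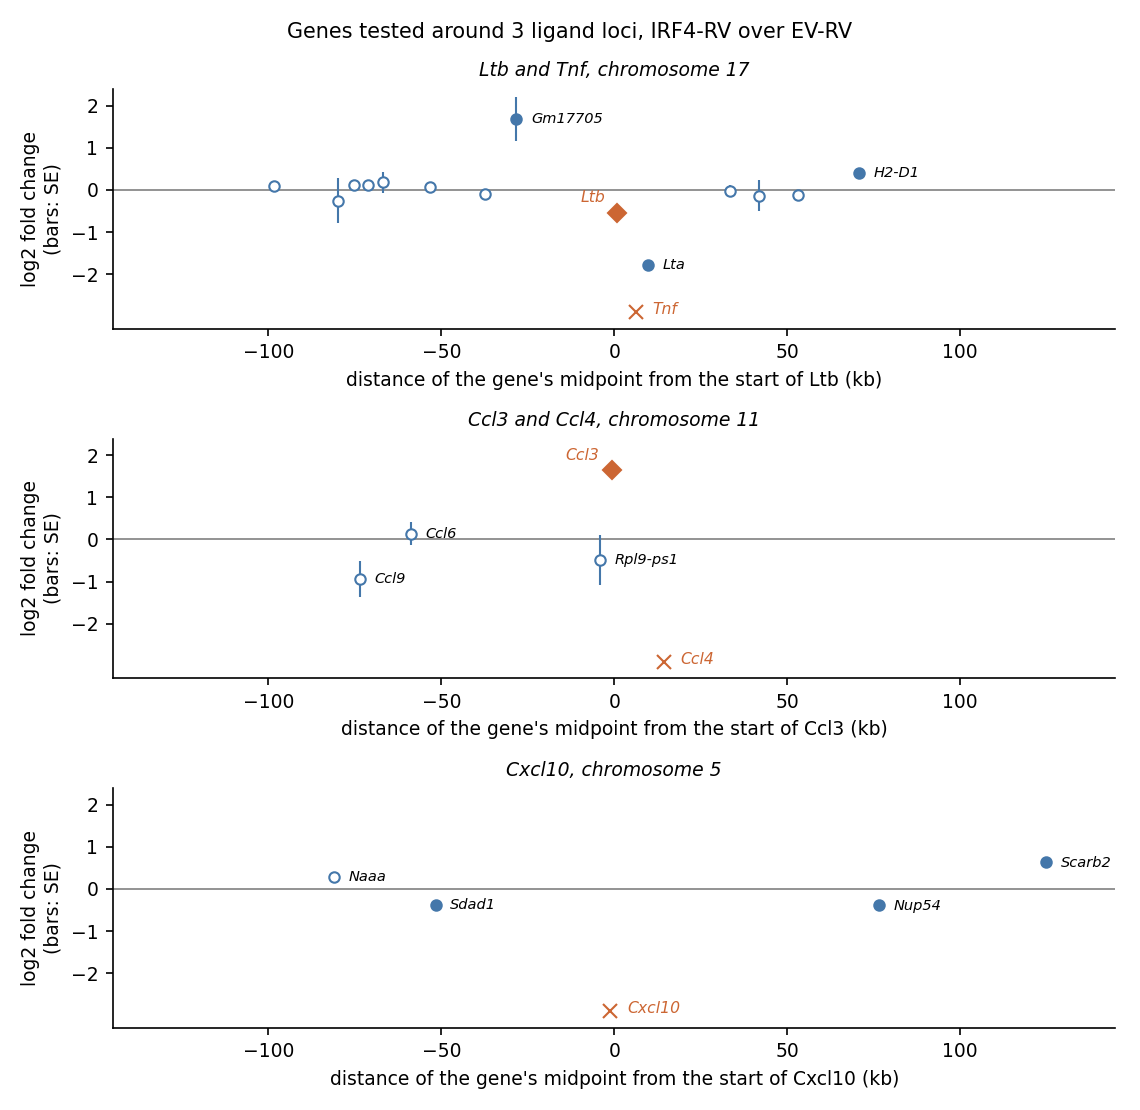
Log2 fold changes (IRF4-RV over EV-RV; bars, SE) of genes tested within 100 kb of *Ltb*, *Ccl3* and *Cxcl10*, by the distance of their midpoint from the start of that gene in kb (filled, adjusted p under 0.1). Orange diamonds are ligands of the set that passed the filter on low counts and had more than 3 counts in EV-RV, and orange crosses below the scale mark the place of *Tnf*, *Ccl4* and *Cxcl10*, for which no fold is drawn. *Lta* (-1.79) is the lowest point, next to *Ltb* (-0.54), and *Ccl3* (1.65) stands above its tested neighbours.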

How the data were processed

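RNAseq of 4 libraries was analyzed, 2 EV-RV and 2 IRF4-RV, grouped by the condition in the labels. According to the submitters' processing notes, reads were checked with FastQC (0.11.2), aligned to GRCm38 with STAR (2.4.0j) and counted with featureCounts, and DESeq2 (1.22.1) was used. The authors deposited raw counts per gene, which are whole numbers without normalization. Settings for strand and multiple alignments were not given in the sources used here, so overlapping genes are uncertain. The identifiers were named by GENCODE M21 (52083 of 55359 matched; 3276 did not).

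Genes passing filterByExpr (14637) were tested with edgeR (4.0.16, R 4.3.3) by the quasi-likelihood F test with TMM factors and Benjamini-Hochberg adjustment at FDR 0.1, the condition being the only term. CPM used the library size after TMM. SEs were derived as the absolute log2 fold change divided by the square root of the F statistic. Levels per kb used the union of exons. Folds against libraries at 0 were computed against 3 counts per library, and intervals are exact 95% binomial intervals of counting error (scipy 1.17.1). Motifs were searched by pattern in the RefSeq table.

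The 10 ligands and the gene lists were chosen with earlier results of these data known, and 2 genes of the lists are not reported here. Genes named are the 10 ligands, *Irf4*, their receptors, and per list up to 4 called genes in each direction with a mean of at least 50 counts (3 for locus neighbours); others are said to be named after their values were seen. Alternatives were DESeq2 (1.42.0), its size factors, library size only, other filters, a replicate block, FDR 0.05 and leaving out each library.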

Additional observations from a re-analysis of the deposited data

How the results depend on the processing

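Of 457 fold changes of single genes refitted, 432 kept their sign and side of the cutoff, 21 were no longer called, 1 became called and 3 changed sign. *Ifngr1* turned to -0.02 with library size only, and without single libraries ranged from -0.01 to 0.14. *Tnfrsf1a* ranged from -0.73 to 1.94 without single libraries. Those fits leave 1 library in a group, which is assumed to vary like the other group. The number of the 10 ligands called was 4, and 3 with DESeq2, which did not call *Ccl4*. It was 2 with a filter of 1 CPM in 2 libraries, which removes *Ifng* and *Ccl4*. CC chemokines called went from 3 to 1 with that filter, and to between 0 (without EV-RV replicate 2) and 3 without single libraries. For CXC, XC and CX3C chemokines the count was 1, 3 with every gene counted at least once, and 1 to 3 without single libraries (2 without EV-RV replicate 2, 3 without IRF4-RV replicate 1, 2 without IRF4-RV replicate 2). With the replicate block, all genes called went from 4349 to 6394, that list to 2, the mRNA decay and processing list from 6 to 11, and the locus neighbours from 7 to 11, while none of the 42 single genes refitted lost its call. Same-numbered libraries deviated together with r = 0.26 across 14637 genes, which are not independent, and with 2 pairs the labels give a shared number only. Counts of other lists stayed within 1.5 times of the main count. The number of the 7 promoters holding each motif was the same in the bases before the start alone. The cause of the other changes was not tested. With 2 libraries per group and most ligands at a few counts, differences of a few counts cannot be seen.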

Other observations

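Of 11 genes tested that act on cytokine mRNA or on the ligand protein, 5 rose, 1 fell and 5 did not pass, where 29.7% of all genes tested were called and DESeq2 called 4 of the 11, with a median log2 fold change of 0.33. *Zfp36l1* (1.01, SE 0.0938, edgeR adjusted p = 0.000265) and *Zfp36* (0.76, SE 0.0745, edgeR adjusted p = 0.000355), which bind AU-rich elements of cytokine mRNA and promote its decay, rose, while their relative *Zfp36l2* had 6285 and 5212 counts in EV-RV, and 3221 and 3345 in IRF4-RV (-0.92, SE 0.0872, edgeR adjusted p = 0.000297). *Dpp4*, a membrane peptidase that trims chemokines including CXCL10, had 12315 and 11510 counts against 22053 and 21999 (0.77, SE 0.0741, edgeR adjusted p = 0.000313). *Zc3h12a*, which codes for the RNase Regnase-1, had 166 and 131 counts against 248 and 209 (0.51, edgeR adjusted p = 0.0855), and was not called without EV-RV replicate 1 (0.103), EV-RV replicate 2 (0.27) or IRF4-RV replicate 1 (0.413), with DESeq2 (0.2) or with library size only (0.173). *Rhbdf2*, a partner of the TNF sheddase and singled out after seeing the values, had 636 and 629 counts against 831 and 873 (0.31, edgeR adjusted p = 0.0466), and was not called without EV-RV replicate 1 (0.19), IRF4-RV replicate 1 (0.211) or IRF4-RV replicate 2 (0.108). *Adam17*, that sheddase, did not pass the test (0.16, edgeR adjusted p = 0.198).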
